A study of Mus musculus with 6 samples.

Results

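The genes described here carry proteins into mitochondria, fold them there and degrade those that fail. They are the 44 rows of the count table, of 21652 in all, whose symbol begins with Tomm or Timm and a number (25 rows) or is among 19 listed chaperone, peptidase and protease genes. Ribosome footprints, the short mRNA fragments that ribosomes shield from nuclease, were counted in the mouse line MIN6, which derives from an insulinoma and secretes insulin. The libraries carry either sgLTN1, a CRISPR guide against Ltn1 (3 libraries) or sgNT, taken here as a non-targeting guide (3 libraries). Ltn1 encodes Listerin, the ubiquitin ligase that tags incomplete chains on stalled large ribosomal subunits. The labels give no other treatment, and they do not say whether the cells were a clone or a pool, or whether libraries came from separate cultures, so the p-values cover the spread between these libraries, which may be technical.

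Most mitochondrial proteins are made in the cytosol and enter through the TOM complex of the outer membrane. From there small TIM chaperones, the TIM23 and TIM22 translocases of the inner membrane and an ATP-driven motor in the matrix carry them on, peptidases remove their targeting signals, the Hsp60 and Hsp10 chaperonin folds them, and a set of ATP-dependent proteases removes damaged ones. Beta cells depend on mitochondrial ATP production to couple glucose to insulin release. In yeast, components of the Listerin pathway act on chains that stall while they enter mitochondria.

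Totals over all genes ranged from 4993245 to 11198735 counts in sgLTN1 libraries and from 4373467 to 7802364 counts in sgNT libraries. Ltn1 itself read 65.3, 71.5 and 64.9 CPM (counts scaled to a common library size with TMM factors) in sgLTN1 libraries, against 143, 145 and 141 CPM in sgNT libraries (log2 fold change -1.09, SE 0.07, edgeR adjusted p = 9.24e-05). All 12 beta-cell markers had at least 10 counts over the 6 libraries, and 11 had enough counts for the test. Their summed level was 90062 to 110984 CPM in sgLTN1 libraries and 92078 to 102069 CPM in sgNT libraries, a sum that the most abundant markers can dominate. The 5 acinar and duct markers summed to 0.812 to 5.86 CPM in sgLTN1 libraries and 1.6 to 1.73 CPM in sgNT libraries, and the 5 fibroblast and endothelial markers to 6.73 to 11.3 CPM and 10.1 to 11 CPM in the same order. The 4 markers of other islet cells summed to 577 to 655 CPM in sgLTN1 libraries and 579 to 611 CPM in sgNT libraries, and the 3 immune markers to 25.5 to 28.9 CPM and 28.3 to 35.8 CPM.

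Enough counts for the test were present for 41 of the 44 genes, with 234 to 16749 counts each over the 6 libraries and a median of 968. Timm8a1 and Timm8a2, which encode small TIM chaperones, and Tomm20l, a relative of the import receptor gene Tomm20, fell under the minimum. Timm8a1 held 8 counts over the sgLTN1 libraries and 9 over the sgNT libraries, Tomm20l 1 and 1, and Timm8a2 0 and 2, so no difference was detectable for them at this depth. For the tested genes the standard error of a log2 fold change had a median of 0.11, against 0.14 for all tested genes.

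No gene of the 41 passed an adjusted p of 0.05 when edgeR's quasi-likelihood p was adjusted by Benjamini-Hochberg over the whole table, where 0.180% of 12782 genes passed. The lowest adjusted p among them was 0.158. An unadjusted p under 0.05 was reached by 4 of the 41 genes in edgeR, all lower in sgLTN1 (9.76%), beside 7.56% of all tested genes lower and 8.00% higher. DESeq2 on the same counts gave an adjusted p for only 9 of the 41 genes, and 0 of these 9 passed 0.05. In the authors' deposited DESeq2 results, 227 of the 2697 genes with an adjusted p passed (8.42%), so 0 of 9 says little. In DESeq2, 1 of the 41 genes had an unadjusted p under 0.05. Libraries of the groups did not overlap for 5 genes, all lower in sgLTN1 (12.2%), and for 0 genes higher, while among all tested genes 10.1% were lower and 10.1% higher without overlap. The shares lower in sgLTN1 lay near those of all genes, while no member was on the higher side in either count. The median log2 fold change (sgLTN1 over sgNT) was -0.03 over the 41 genes and -0.02 over all tested genes. Below 0 lay 24 of the 41 (58.5%), beside 52.7% of all tested genes. The quartiles were -0.15 and 0.06, beside -0.16 and 0.13 for all tested genes. The 41 genes were more abundant, with a median log2 CPM of 4.52 beside 3.79, and whether this bears on the quartiles was not tested.

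The intervals say how large a change these data leave room for. The 95% interval of the log2 fold change lay within 0.5 of 0 on both sides for 33 of the 41 genes and within 0.25 for 6. Since RNA-seq was not used here, mRNA amount and ribosome density per mRNA cannot be told apart for any of these genes.

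The genes named for the outer membrane entry gate included the lowest estimate of the 41, that of Tomm22. Of 9 tested Tomm genes, 8 lay below 0 (88.9%), beside 52.7% of all tested genes. The sets of mitochondrial ribosomal proteins and cytosolic chaperones, described below, had 75.3% and 75% below 0. The median log2 fold change of the Tomm genes was -0.09, and -0.11 once the dependence of fold changes on abundance was removed. No Tomm gene passed the adjusted threshold.

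Tomm22 encodes the central receptor that holds the TOM complex together. It read 8.31, 8.9 and 7.19 CPM in sgLTN1 libraries, against 13.5, 11.9 and 9.71 CPM in sgNT libraries. Every sgLTN1 library lay below every sgNT library, and the log2 fold change was -0.50 (SE 0.16, 95% interval -0.85 to -0.16, edgeR adjusted p = 0.176). It rests on 209 counts over the sgLTN1 libraries and 200 over the sgNT libraries, a low total among these 41 genes. The authors' deposited table gives Tomm22 a log2 fold change of -0.49 (SE 0.25) with an unadjusted p of 0.0494 and no adjusted p.

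Tomm6 encodes a small subunit that stabilises the complex. Its levels were 21.3, 21.9 and 23.8 CPM in sgLTN1 libraries and 28.9, 24.6 and 28 CPM in sgNT libraries, again without overlap (log2 fold change -0.28, SE 0.10, edgeR adjusted p = 0.211). Tomm34, a cytosolic cochaperone of Hsp70 and Hsp90 that is named with this family, read 21, 19.3 and 16.4 CPM in sgLTN1 libraries, against 25.2, 23.6 and 21.1 CPM in sgNT libraries. Its highest sgLTN1 library lay just under its lowest sgNT library, and the log2 fold change was -0.28 (SE 0.11, edgeR adjusted p = 0.275).

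Whether the other small subunits differed from Tomm6 was not tested. Tomm5 read 5.33, 5.54 and 6.78 CPM in sgLTN1 libraries, against 5.27, 4.95 and 6.04 CPM in sgNT libraries (log2 fold change 0.10, SE 0.19), and Tomm7 26.7, 29.1 and 32.9 CPM against 28.2, 31.4 and 33.2 CPM (-0.08, SE 0.10). Both overlapped between groups. The intervals of Tomm5 (-0.31 to 0.52) and Tomm7 (-0.31 to 0.14) contain the Tomm6 estimate of -0.28, but not the Tomm22 estimate of -0.50. Tomm5 rests on 234 counts, the fewest of the 41 genes.

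Among the receptors, Tomm20, which binds cleavable presequences, read 23.9, 27.8 and 32.3 CPM in sgLTN1 libraries and 30.9, 29.9 and 25.5 CPM in sgNT libraries, with a log2 fold change of -0.07 (SE 0.12). Tomm70a, the receptor for carriers and other chaperone-bound precursors, had 47, 49.1 and 42.7 CPM in sgLTN1 libraries and 52.7, 50.2 and 45.7 CPM in sgNT libraries (-0.09, SE 0.09). Tomm40, the channel, had 50.4, 40.9 and 36.8 CPM in sgLTN1 libraries and 35.3, 47.3 and 54.8 CPM in sgNT libraries (-0.09, SE 0.15). The first sgLTN1 library and the third sgNT library were the high ones, so the spread within groups exceeded the distance between them. Its relative Tomm40l had 6.77, 7.17 and 9.86 CPM in sgLTN1 libraries and 8.02, 9.15 and 9.06 CPM in sgNT libraries (-0.20, SE 0.18).

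**Figure D1:**
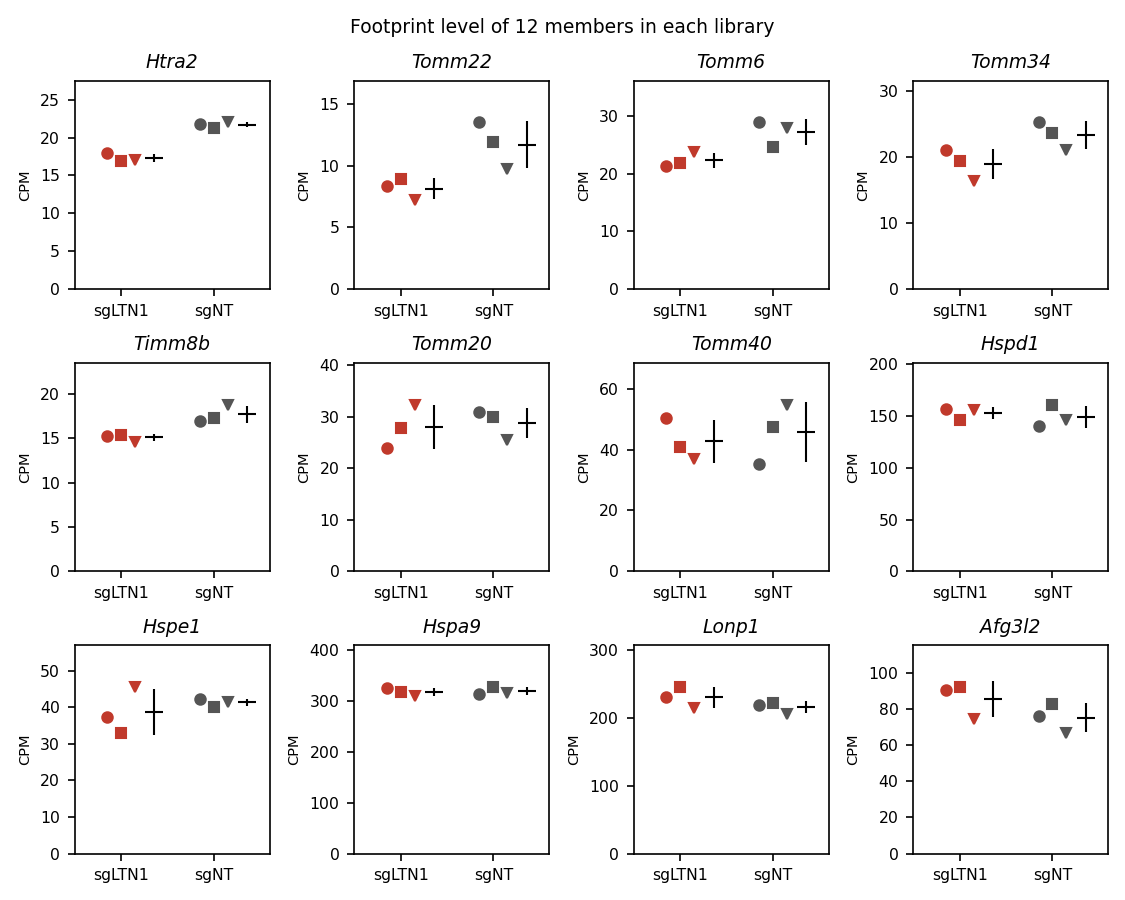
Footprint level in CPM (vertical axes, from 0) of 12 genes in each library, with sgLTN1 libraries in red on the left and sgNT libraries in grey on the right. Circles, squares and triangles are libraries 1, 2 and 3 of a group, and the bar beside them is the mean with its SD (n = 3). In Htra2, Tomm22, Tomm6, Tomm34 and Timm8b every sgLTN1 library lies below every sgNT library, and in the other panels the groups overlap.

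Small TIM chaperones escort hydrophobic precursors across the intermembrane space. Timm8b, a relative of yeast Tim8, the partner of Tim13, read 15.3, 15.4 and 14.6 CPM in sgLTN1 libraries, against 17, 17.3 and 18.8 CPM in sgNT libraries. The groups did not overlap, and the log2 fold change was -0.22 (SE 0.10, 95% interval -0.44 to 0.01, edgeR adjusted p = 0.342). Timm13 itself had 7.58, 5.21 and 8.63 CPM in sgLTN1 libraries and 6.19, 6.56 and 6.47 CPM in sgNT libraries (log2 fold change 0.12, SE 0.21), a spread in sgLTN1 that covered the whole sgNT range. Timm9 and Timm10 form the main hexamer of the space. Timm10 read 9.03, 7.71 and 10.1 CPM in sgLTN1 libraries, against 8.02, 12.5 and 11.6 CPM in sgNT libraries (-0.31, SE 0.18), and Timm9 9.57, 9.45 and 15.4 CPM against 9.4, 13.4 and 10.1 CPM (-0.03, SE 0.21). Timm10b, a subunit that docks to the TIM22 complex, had 19.4, 17 and 21.6 CPM in sgLTN1 libraries and 16.7, 16.6 and 20.9 CPM in sgNT libraries (0.09, SE 0.13). All 4 of these genes overlapped between groups.

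The inner membrane translocases gave estimates close to 0. The 7 genes had log2 fold changes of -0.15 to 0.07 with a median of 0.03, 5 above 0 and 2 below, and 0 of them separated the groups. Timm50, the receptor of the TIM23 complex and the most counted of them, read 68.5, 68.8 and 59 CPM in sgLTN1 libraries, against 70.4, 65.1 and 57.2 CPM in sgNT libraries (log2 fold change 0.04, SE 0.09). The third library was the lowest in both groups. Timm23, the core subunit for which that complex is named, had 30.8, 28.9 and 27.7 CPM in sgLTN1 libraries and 25, 30.9 and 26.8 CPM in sgNT libraries (0.07, SE 0.10). Timm29, a metazoan subunit of the TIM22 complex, had 31.1, 31.2 and 33.9 CPM in sgLTN1 libraries and 29.3, 35.6 and 40.6 CPM in sgNT libraries (-0.15, SE 0.11).

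Timm17a and Timm17b are alternative subunits of the TIM23 complex, and the TIMM17A protein is known in human cells as a short-lived one that YME1L1 degrades under stress. Timm17a read 24, 25.6 and 26.1 CPM in sgLTN1 libraries, against 28, 26 and 27.8 CPM in sgNT libraries (log2 fold change -0.11, SE 0.09). Timm17b read 28.8, 28.9 and 35.1 CPM against 25.2, 32 and 32.4 CPM (0.02, SE 0.12). For Timm17a the second sgNT library lay within the sgLTN1 range and the other sgNT libraries above it, and for Timm17b the groups overlapped throughout. Timm21 and Timm22 had log2 fold changes of 0.03 (SE 0.17) and 0.06 (SE 0.18) on 417 and 358 counts in all.

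The import motor pulls precursors into the matrix with the Hsp70 encoded by Hspa9. Hspa9 was among the most precisely measured of the genes, at 324, 317 and 309 CPM in sgLTN1 libraries and 314, 327 and 316 CPM in sgNT libraries. The libraries interleaved, and the log2 fold change was -0.01 (SE 0.06) with a 95% interval of -0.13 to 0.11. Grpel1 and Grpel2 encode its nucleotide exchange factors. Grpel1 had 22.5, 21.3 and 23.2 CPM in sgLTN1 libraries and 20.2, 21.2 and 22.2 CPM in sgNT libraries (0.07, SE 0.09). Grpel2 had 11.1, 9.66 and 11.1 CPM and 9.63, 10.3 and 12.5 CPM in the same order (-0.02, SE 0.14), and both overlapped between groups.

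Timm44, which tethers that Hsp70 to the translocase, read 17.8, 16.5 and 18.7 CPM in sgLTN1 libraries, against 17.9, 22.9 and 19 CPM in sgNT libraries (log2 fold change -0.20, SE 0.12), with the second sgNT library standing high. Pam16 and Dnajc19 encode the J-domain regulators of the motor. Pam16 read 29.4, 30.3 and 27.1 CPM in sgLTN1 libraries, against 26.1, 26.7 and 29.6 CPM in sgNT libraries (0.09, SE 0.09), with the third sgNT library inside the sgLTN1 range. Dnajc19 had a log2 fold change of -0.04 (SE 0.12), also with overlapping groups.

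The matrix chaperonin is encoded by Hspd1 (Hsp60) and Hspe1 (Hsp10), which lie side by side in opposite directions and share a promoter region. Hspd1 read 157, 146 and 156 CPM in sgLTN1 libraries, against 140, 161 and 146 CPM in sgNT libraries (log2 fold change 0.03, SE 0.07, 95% interval -0.12 to 0.19). Hspe1 read 37.5, 33 and 45.6 CPM in sgLTN1 libraries, against 42.2, 40.2 and 41.6 CPM in sgNT libraries (-0.11, SE 0.11). The sgLTN1 libraries of Hspe1 lay on both sides of the sgNT libraries, which were close together.

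The promoter windows of these genes, 250 bases before to 50 after the annotated start in RefSeq (GRCm38.p6), were searched on both strands for the heat shock element, written as GAA, NN, TTC, NN and GAA in a row, the site family of the factor HSF1. It stood in the windows of Hspd1, Hspe1 and Timm9, which is 3 of 40 windows (7.5%) from the 37 genes with a window, beside 0.53% of 12633 windows of tested genes. The Hspe1 window and the second Hspd1 window share 285 bases on opposite strands, so the pair counts the same DNA more than once. The windows of Hspe1 and Timm9 are printed because they show this element at the shared chaperonin promoter and at a small TIM gene, with matches in capitals. In Hspe1 there are overlapping matches, whose first bases lie at -89 and -84 from the start, and in Timm9 the match begins at -202.
Hspe1 promoter (chr1:55087898-55088197, + strand): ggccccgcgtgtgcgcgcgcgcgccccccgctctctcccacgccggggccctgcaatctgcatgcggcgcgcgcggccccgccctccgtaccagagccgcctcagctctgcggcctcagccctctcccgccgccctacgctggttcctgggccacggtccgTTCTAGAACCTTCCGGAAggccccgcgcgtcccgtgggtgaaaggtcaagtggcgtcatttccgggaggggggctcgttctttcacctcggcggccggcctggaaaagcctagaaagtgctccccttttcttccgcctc
Timm9 promoter (chr12:71136626-71136925, - strand): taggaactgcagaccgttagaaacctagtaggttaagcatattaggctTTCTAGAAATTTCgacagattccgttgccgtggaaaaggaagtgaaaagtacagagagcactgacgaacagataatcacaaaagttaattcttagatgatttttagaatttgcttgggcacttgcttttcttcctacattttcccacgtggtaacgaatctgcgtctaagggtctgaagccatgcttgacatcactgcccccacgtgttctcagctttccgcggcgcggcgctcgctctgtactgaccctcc

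The 3 genes with this element had log2 fold changes of 0.03, -0.11 and -0.03, none past the threshold. Sites for the nuclear respiratory factors, which drive many mitochondrial genes, were spread across roles. The NRF1 core, GCGCA then N then GCGC, was in 15% of the 40 windows (Hspd1, Oma1, Pam16, Spg7, Timm8b and Tomm20) beside 9.48% of windows of tested genes, and the GABPA core CCGGAAGT in 17.5% (Pmpcb, Timm10, Timm10b, Timm23, Timm29, Timm8a2 and Tomm70a) beside 7.69%. The 40 windows include untested genes such as Timm8a2, while the windows they are set beside are of tested genes only. The core TGATGNAA bound by ATF4 and CHOP dimers was in 0 of the 40 windows and in 2.22% of windows of tested genes. Of the 5 genes whose groups did not overlap, Timm8b carried the NRF1 core, and Tomm22, Tomm6 and Tomm34 held none of these motifs in their windows. The fifth, Htra2, had no window in the table used and was not searched. A match is a run of letters and was not tested as a binding site.

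Peptidases cut off the targeting signals. Pmpca and Pmpcb encode the alpha and beta subunits of the matrix processing peptidase. Pmpca read 38.5, 38.1 and 35.8 CPM in sgLTN1 libraries, against 44, 38 and 38.6 CPM in sgNT libraries (log2 fold change -0.09, SE 0.09). Pmpcb read 51.3, 49.9 and 48.5 CPM in sgLTN1 libraries, against 48.1, 50.7 and 51.3 CPM in sgNT libraries (-0.00, SE 0.07), and its libraries interleaved. Immp1l and Immp2l, the subunits of the inner membrane peptidase, had estimates on opposite sides of 0. Immp1l had 12.9, 11.8 and 12.5 CPM in sgLTN1 libraries and 15.6, 12.7 and 14.7 CPM in sgNT libraries (-0.19, SE 0.12), and Immp2l 9.48, 11.1 and 11.5 CPM and 10.5, 8.91 and 8.41 CPM in the same order (0.19, SE 0.15). In each a single library kept the groups from separating.

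Among the 8 quality-control proteases, Htra2 had the smallest edgeR p of all 41 genes. It encodes a serine protease of the intermembrane space that is released during apoptosis and binds inhibitors of caspases. Htra2 read 17.9, 16.9 and 17.1 CPM in sgLTN1 libraries, against 21.8, 21.3 and 22 CPM in sgNT libraries. Both groups were tight, with SDs of 0.51 and 0.372 CPM, and they did not overlap. The log2 fold change was -0.32 (SE 0.09, 95% interval -0.52 to -0.12), with an unadjusted p of 0.00535 and an adjusted p of 0.158 in edgeR. The authors' deposited DESeq2 table gives Htra2 -0.30 with a larger SE of 0.18, an unadjusted p of 0.0896 and no adjusted p. Oma1, the stress-activated inner membrane protease that cuts the fusion protein OPA1, had 13.9, 16.8 and 11.7 CPM in sgLTN1 libraries and 16.5, 15.5 and 16.8 CPM in sgNT libraries (-0.17, SE 0.14), with the second sgLTN1 library in the sgNT range.

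The AAA proteases of the inner membrane and the Lon protease of the matrix lay above 0. Afg3l2, a subunit of the m-AAA protease that faces the matrix, had 90.4, 92.1 and 74.2 CPM in sgLTN1 libraries and 75.9, 82.6 and 66.9 CPM in sgNT libraries. Its log2 fold change of 0.19 (SE 0.10, 95% interval -0.04 to 0.42, edgeR adjusted p = 0.41) was among the highest estimates of the 41 genes, and the third library was the lowest in both groups. In 4 of 13 alternative fits its unadjusted edgeR p was under 0.05, with a lowest adjusted p of 0.121. The authors' deposited table gives Afg3l2 0.21 (SE 0.13) with an adjusted p of 0.29, the lowest among the 9 of these genes that have an adjusted p there, none of which was called, beside 8.42% of all genes with an adjusted p in that table.

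Spg7, the partner of Afg3l2 (paraplegin), read 104, 96.8 and 92.7 CPM in sgLTN1 libraries, against 90.1, 102 and 84.1 CPM in sgNT libraries (log2 fold change 0.09, SE 0.08). Lonp1, which degrades oxidised matrix proteins, read 231, 246 and 215 CPM in sgLTN1 libraries, against 220, 222 and 206 CPM in sgNT libraries (0.09, SE 0.07). Yme1l1, the i-AAA protease that faces the intermembrane space, had 415, 417 and 347 CPM in sgLTN1 libraries and 397, 397 and 361 CPM in sgNT libraries (0.03, SE 0.08). The third library of Yme1l1 was the low one in both groups, as for Afg3l2 and Lonp1. Clpp, the peptidase of the matrix Clp protease, had 17.4, 19.8 and 17.3 CPM in sgLTN1 libraries and 17.2, 20.2 and 19.8 CPM in sgNT libraries (-0.08, SE 0.11). Clpx, its unfoldase, had 25.9, 20.4 and 22.8 CPM in sgLTN1 libraries and 22.7, 23.1 and 20.7 CPM in sgNT libraries (0.06, SE 0.11), and both genes overlapped between groups.

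**Figure D2:**
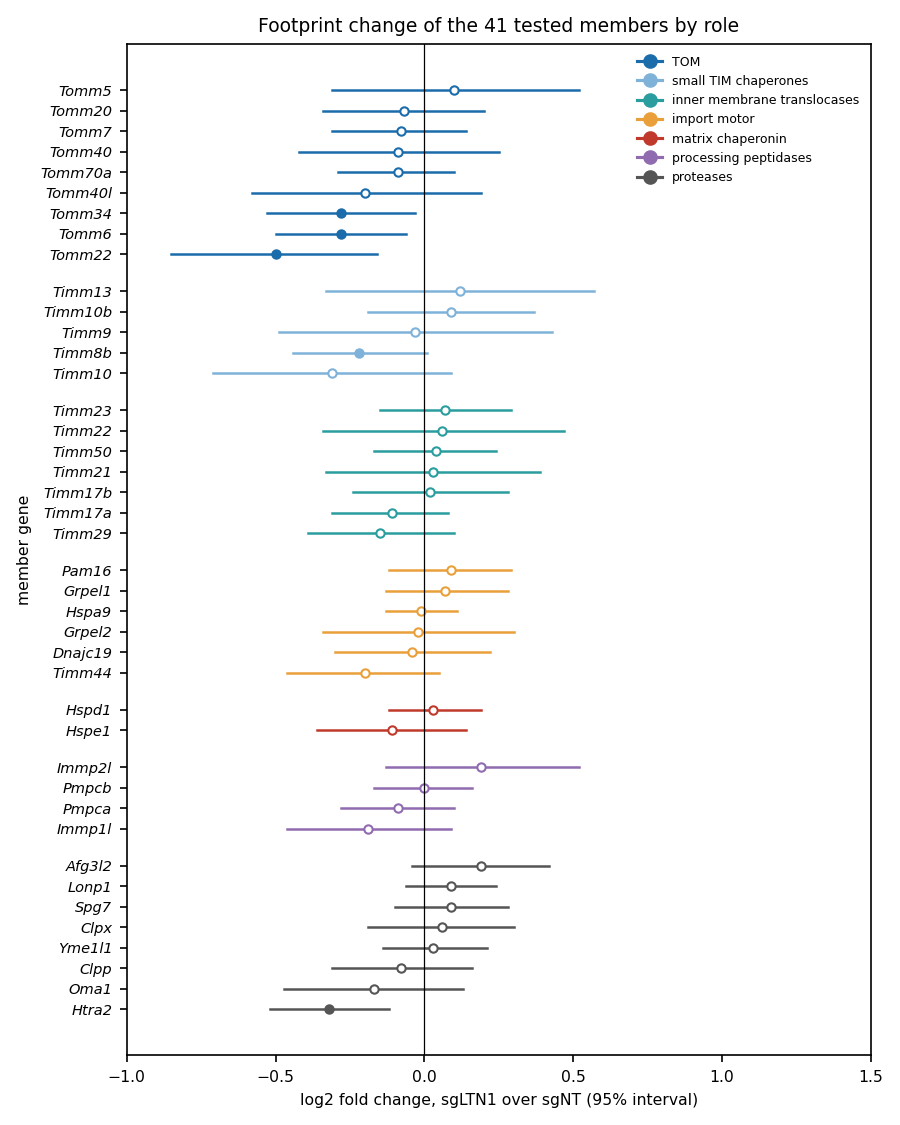
Log2 fold change of sgLTN1 over sgNT (horizontal axis) for each of the 41 tested genes, grouped and coloured by role, with bars for the 95% interval of the edgeR fit. Filled circles mark the 5 genes whose libraries did not overlap between groups, all on the left of 0, and open circles those that overlapped.

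Estimates followed abundance in part. Fold changes of all tested genes lay lower for scarce and higher for abundant genes, with medians of -0.06 for the 6919 genes whose log2 CPM was under 4, -0.00 for 3825 genes between 4 and 6 and 0.07 for 2038 genes over 6. Of these mitochondrial genes, the 12 under 4 had a median of -0.03, the 22 between 4 and 6 a median of -0.09 with 6 above 0, and the 7 over 6 a median of 0.04 with 6 above 0. The 7 abundant ones were Hspa9, Yme1l1, Lonp1, Hspd1, Spg7, Afg3l2 and Timm50. With the dependence removed, the median of all 41 was -0.06, and the estimates of Hspd1 and Yme1l1 turned to -0.02 and -0.07.

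**Figure D3:**
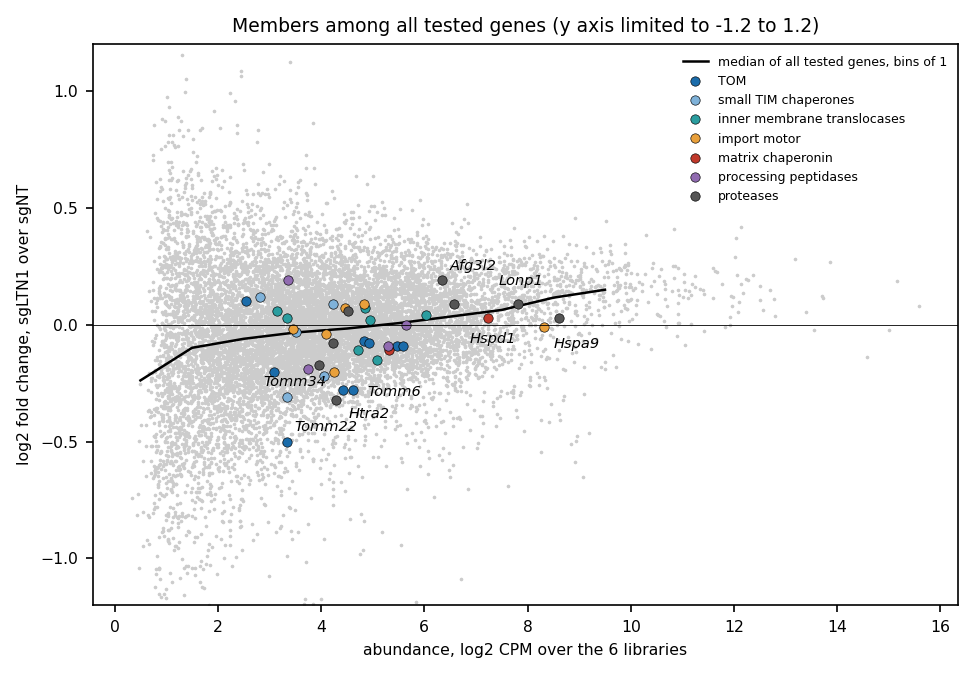
Log2 fold change of sgLTN1 over sgNT (vertical axis) against abundance in log2 CPM (horizontal axis) for all tested genes in grey, with the 41 mitochondrial genes coloured by role and the running median of all genes as a black line. The line climbs with abundance, and the coloured points lie within the grey cloud at their abundance, with Tomm22 lowest at -0.50.

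Ratios between partners were compared within each library, which removes the scaling between libraries. The 12 pairs were chosen by complex or paralogy, apart from Yme1l1 and Oma1, which are both inner membrane proteases. They were drawn from genes chosen with earlier results of these data known. The log2 ratio of counts (0.5 added to each) was set against all 20 ways to label the 6 libraries. This exact permutation test on both sides has a smallest p of 0.1, so that no pair could pass 0.05. The ratio of Tomm20 to Tomm22 was 1.77 ± 0.33 in sgLTN1 and 1.30 ± 0.10 in sgNT (SD, n = 3 each). It was the only pair of the 12 without overlap between groups, with a difference of 0.47 (exact permutation p = 0.1, adjusted over the pairs 0.6). Any pair without overlap gets this smallest p of 0.1, so a lone pair among 12 is near what relabelling alone gives. The ratio also uses the same Tomm22 counts as above and is not a separate result.

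The chaperonin ratio of Hspd1 to Hspe1 was 1.99 ± 0.20 in sgLTN1 and 1.85 ± 0.14 in sgNT on that log2 scale (SD, n = 3 each, exact permutation p = 0.3). The ratio of Afg3l2 to Spg7 was -0.20 ± 0.12 in sgLTN1 and -0.29 ± 0.04 in sgNT (SD, n = 3 each, exact permutation p = 0.3), and that of Grpel1 to Grpel2 1.07 ± 0.06 and 0.97 ± 0.13 (exact permutation p = 0.4, n = 3 each). Timm17a over Timm17b was -0.29 ± 0.13 in sgLTN1 and -0.12 ± 0.24 in sgNT (exact permutation p = 0.5, n = 3 each), with the first sgNT library at 0.15 standing apart. The remaining 7 pairs differed by between -0.39 (Timm8a1 over Timm8b, on few counts of Timm8a1) and 0.29 (Timm9 over Timm10), with overlap in every case.

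**Figure D4:**
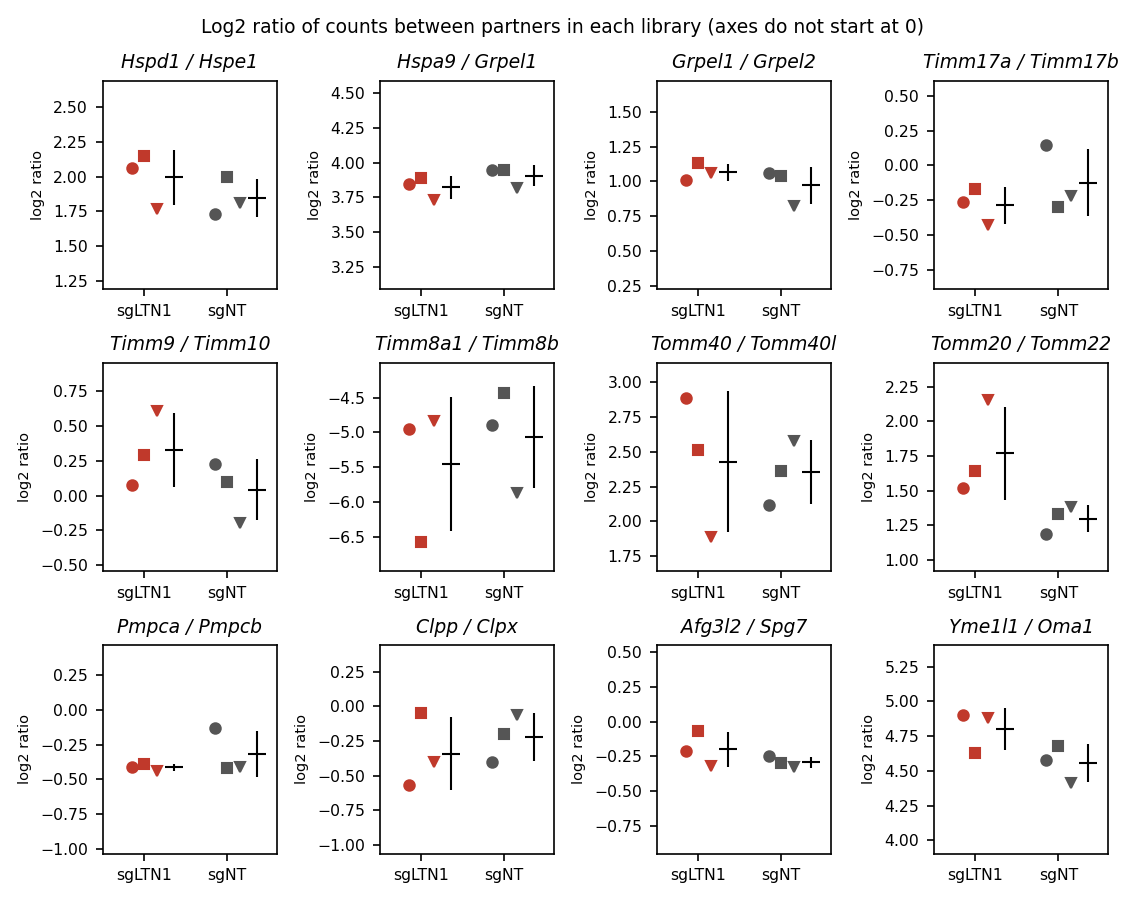
Log2 ratio of counts between partners (vertical axes, each with its own range that does not start at 0) in each library for the 12 pairs, with sgLTN1 libraries in red on the left and sgNT libraries in grey on the right, symbols by library number and bars for the mean with its SD (n = 3). Tomm20 over Tomm22 is the pair in which all sgLTN1 libraries lie above all sgNT libraries.

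The other genes of the pathway, 44 rows with 42 tested and Ddit3 on separate rows, gave a like picture when pooled. Their median log2 fold change was -0.03, and 0 passed an adjusted p of 0.05 in edgeR. An unadjusted p under 0.05 was reached by 3, all lower in sgLTN1 (7.14%), beside 7.56% of all tested genes lower and 8.00% higher. The smallest p values belonged to Xpnpep3, an aminopeptidase that trims imported proteins, and to Stoml2, a scaffold of the inner membrane that binds the i-AAA protease. Xpnpep3 read 19.1, 19.5 and 23 CPM in sgLTN1 libraries, against 29.8, 25.6 and 27.8 CPM in sgNT libraries (-0.44, SE 0.11, edgeR adjusted p = 0.119), without overlap. Stoml2 read 5.96, 5.1 and 5.34 CPM in sgLTN1 libraries, against 7.56, 7.42 and 8.84 CPM in sgNT libraries (-0.52, SE 0.17, edgeR adjusted p = 0.186), also without overlap. With Vcp (-0.07, SE 0.05), 3 of the 42 had groups without overlap, all lower (7.14%). Among all tested genes 10.1% were lower and 10.1% higher without overlap.

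A few more were singled out after their values were seen. Ankzf1, whose yeast counterpart Vms1 releases stalled chains in the Listerin pathway and protects mitochondria, had 111, 126 and 149 CPM in sgLTN1 libraries and 169, 133 and 169 CPM in sgNT libraries (-0.29, SE 0.12, edgeR adjusted p = 0.275). The third sgLTN1 library overlapped the second sgNT library. Atf5, a transcription factor linked to the mitochondrial unfolded protein response, read 92.2, 95.8 and 102 CPM in sgLTN1 libraries, against 91.5, 92.8 and 102 CPM in sgNT libraries (0.01, SE 0.07). Atf4, a factor of the integrated stress response, read 56.7, 47.7 and 58.2 CPM in sgLTN1 libraries, against 54.6, 61.2 and 68.2 CPM in sgNT libraries (-0.18, SE 0.10). The 7 tested rows of mitochondrial stress factors, to which Atf5 and Atf4 belong, had a median of -0.16. Below 0 lay 5 of them (71.4%), beside 52.7% of all tested genes, and 0 had an unadjusted edgeR p under 0.05.

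Set beside related genes, with no test of the difference, the 41 genes lay nearer to 0 than the 77 tested genes of mitochondrial ribosomal proteins, whose median was -0.13 with 58 below 0. The 24 cytosolic chaperones and their partners had a median of -0.06 with 18 below 0. The shares below 0 were 75.3% for the ribosomal and 75% for the cytosolic set, beside 58.5% of the 41 and 52.7% of all tested genes. The sets differ in abundance, with median log2 CPM of 4.52 for the 41 genes, 3.97 for the ribosomal and 6.77 for the cytosolic set. With the dependence on abundance removed, the medians were -0.06 for the 41 genes, -0.11 for the ribosomal and -0.13 for the cytosolic set. None of the 3 sets held a gene past the adjusted threshold in edgeR, and the genes with an unadjusted p under 0.05 numbered 4 among the 41 (9.76%), 10 among the ribosomal (13%) and 2 among the cytosolic set (8.33%), all lower in sgLTN1, beside 7.56% of all tested genes lower.

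Counting limits touch some of these values. In the RefSeq table, Hspe1 has 7 named pseudogenes or related sequences, Hspd1 5, and Hspa9, Dnajc19 and Timm29 1 each, and reads shared with near-identical copies can be lost or moved, so these counts are uncertain. The span of 17 of the 44 genes overlaps another counted gene there. Among the 5 genes without overlap between groups, Htra2 with 806 counts overlaps Aup1 with 1984 and Loxl3 with 168 counts, Tomm6 with 1009 counts overlaps Gm20517 with 234, and Timm8b with 684 counts overlaps Nkapd1 with 131. How the strand was treated is not given in the sources used here, so reads of such pairs may not be told apart. Tomm22 and Tomm34 overlap no counted gene.

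The 4 genes with an unadjusted p under 0.05 differed in how far they rested on single libraries. With each library left out in turn, Htra2 and Tomm22 kept an unadjusted p under 0.05 in 6 of 6 fits, with log2 fold changes of -0.35 to -0.29 and -0.60 to -0.39. Tomm6 kept it in 3 of 6 fits (-0.35 to -0.22) and lost it without sgNT library 1, sgLTN1 library 1 or sgLTN1 library 2. Tomm34 kept it in 2 of 6 fits (-0.37 to -0.20) and lost it without sgNT library 1 or 2 or sgLTN1 library 2 or 3. None passed the adjusted threshold in any of these fits. With DESeq2 on all 6 libraries, only Tomm22 of the 4 kept an unadjusted p under 0.05, and Htra2, Tomm6 and Tomm34 lost it. The DESeq2 fold changes and p-values of these 4 genes equal those of the authors' deposited table, so the run and that table are not separate results.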

How the data were processed

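The members, their roles and the gene lists were chosen with earlier results of these data known. The authors deposited whole-number read counts per gene for each library. The submitters' processing notes name STAR 2.7.11a, Bowtie2 2.5.4, featureCounts 2.12.3, UMI-tools 1.1.2, SAMtools 1.9, fastp 0.23.4 and the build GRCm39, with no role or order. How strand, annotation and multi-mapping were handled is not given in the sources used here. Per the file headers, the authors' second table holds DESeq2 output (1.38.3 in the notes): a log2 fold change with its error, a Wald score, p-values and a mean normalized signal.

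Here counts were fitted in R 4.3.3 with edgeR 4.0.16 (filterByExpr, TMM, quasi-likelihood, group as sole term), adjusting over all 12782 tested genes. A DESeq2 (1.42.0) run, other scalings, filters, a replicate block, abundance offsets and leaving out libraries were alternatives. Depth was 4373467 to 11198735 counts per library. Intervals are 95% intervals of the fit. No pair of libraries in a group matched within counting noise (chi-square per degree of freedom 2.61 or more), so none was merged as a library deposited more than once. Values in every library are given for genes without overlap or with an unadjusted p under 0.05, for the 2 most counted genes of each role and for paired partners. Tomm5, Tomm7, Timm13, Timm23, Timm44, Immp1l and Immp2l were added to these after their values were seen. CPM is not divided by gene length, so levels are compared between groups and not between genes. Promoters are RefSeq GRCm38.p6, which is not the build of the counts. All sample columns were used.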

Additional observations from a re-analysis of the deposited data

How the results depend on the processing

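No gene of the 41 passed an adjusted p of 0.05 in any of 13 alternative fits (DESeq2 gave one for 9 of them), the lowest adjusted p being 0.0763 for Tomm22 with the replicate block. Over all genes the count of 23 became 42 with total-count scaling (8 higher, 34 lower, against 11 and 12), 227 with DESeq2, 222 with no low-count filter and 609 with the replicate block. It was 333 without sgLTN1 library 3 and ranged from 4 to 12 when any other single library was left out. Whether the library numbers pair the samples is not given. Over all tested genes, deviations of same-numbered libraries from their group means correlated at -0.0483, 0.0665 and 0.0884, which cannot settle it. No block was fitted to the partner ratios. In 3 of them all same-numbered differences had the same direction, which is a looser condition than the lack of overlap seen in 1 pair. These counts are therefore not comparable. The number of these genes with an unadjusted p under 0.05 was 1 with DESeq2 and 2 to 5 with libraries left out (2 without sgLTN1 library 2). Not all were lower in sgLTN1. Afg3l2 was higher with such a p in 4 of the 13 alternative fits. These were the fits with the replicate block, with no low-count filter, without sgNT library 2 and without sgLTN1 library 3. The share of all genes under that p was not counted in the alternative fits. The median of the 41 was -0.11 with total-count scaling, where 8 lay above 0 and the median of all genes was -0.09, and it ranged from -0.04 to 0.02 with libraries left out (0.02 without sgNT library 2). The cause of these shifts was not tested.

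The sign of small estimates turned for 16 genes in 36 values between -0.11 and 0.18, none past the threshold, counted on values rounded to 2 decimals. Pmpcb, at -0.00, has no sign at that precision and ranged from -0.08 to 0.02. Genes that kept their sign included Htra2, Tomm22, Tomm6, Tomm34, Timm8b, Afg3l2 and Lonp1. The values of opposite sign with total-count scaling were Hspd1 and Yme1l1 (-0.04 each), Timm50 (-0.04), Clpx (-0.02), Grpel1, Timm22 and Timm23 (-0.01 each), and Timm21 and Timm17b (-0.05 each). With the abundance trend removed these were Hspd1 (-0.02), Yme1l1 (-0.07) and Grpel2 (0.01). DESeq2 gave Timm9 0.03 and Hspa9 0.01, and the fit with no low-count filter gave Hspa9 0.01. With libraries left out the ranges were -0.22 to 0.01 for Hspe1, -0.01 to 0.12 for Yme1l1, -0.11 to 0.03 for Dnajc19, -0.23 to 0.05 for Tomm40, -0.03 to 0.12 for Timm50, -0.16 to 0.05 for Tomm20, -0.05 to 0.16 for Clpx, -0.08 to 0.21 for Timm22, -0.24 to 0.18 for Timm9, -0.03 to 0.02 for Hspa9, -0.07 to 0.09 for Grpel2, -0.11 to 0.17 for Timm21 and -0.06 to 0.10 for Timm17b. The SE was 0.21 for Timm13 on 284 counts and for Timm9 on 464, and 0.19 for Tomm5 on 234.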
